A study of Homo sapiens with 4 samples.

Results

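The genes described here are 10 genes of HLA class II antigen presentation, measured in M14, an established human melanoma line. They are 10 of 21357 gene symbols that the array's annotation names, and they were read through every probe set naming at least 1 of them, 28 of 54675. Of the 28, 22 name 1 gene and 6 name several HLA genes. The set was chosen on the signal of HLA-DRB4, which differs between the lines, so the comparison between the lines is given as a description, with no test, and the comparison between cultures is the one that was tested. Per the labels, M14 cells carried either the empty plasmid pIRES2 with eGFP, or the same plasmid with FLAG-tagged ARHGAP8 lacking a variant exon. Both were selected with the antibiotic G418 and sorted for eGFP, so every group shares the plasmid, the drug and eGFP. Cells of either line spent 4 days on plastic coated with collagen (2D) or inside growth factor-reduced Matrigel (3D), a basement membrane gel, with 1 array for each of the 4 combinations. A single transfected line per plasmid was measured, so a difference between the lines cannot be told apart from a difference between any 2 separately made lines.

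The 4 probe sets of ARHGAP8 are all shared with PRR5-ARHGAP8 and lay between 4.02 and 14.8, below the signal of 72.3 used as a floor for dim values. They therefore do not check the labels, and the second line is called the line labelled ARHGAP8. On the 3D array of that line, control probe sets of ribosomal RNA stood far above the other arrays. Their medians were 626 for 18S against 27.7 to 49.4 elsewhere, and 1390 for 28S against 94.4 to 119. For listed genes that passed the culture test, the ratio in the empty-vector line, which does not use this array, is given too. Of 12 melanoma and pigment cell markers with a probe set of their own, 11 were above the floor on all 4 arrays. PMEL, a melanosome matrix gene, was below it on every array, at 4.78 to 15.6.

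HLA class II molecules are heterodimers of an alpha and a beta chain that present peptides from endosomes to CD4+ T cells. HLA-DR, HLA-DP and HLA-DQ are the presenting molecules, CD74 is the invariant chain that guides them to endosomes, and HLA-DM, made of HLA-DMA and HLA-DMB, exchanges the CD74 fragment for peptide. Their transcription depends on the coactivator CIITA, which docks on factors bound to the X and Y boxes of class II promoters and is induced by interferon gamma. Class II is typical of professional antigen presenting cells, and melanomas are among the tumours known to express it.

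RefSeq promoter windows (GRCh38.p14, from 250 bases before to 50 after the gene start) were given for 7 of the 10 genes, with 8 windows. HLA-DRA, HLA-DRB4 and CIITA had no entry. The longest run of letters that windows of at least 3 of these genes share is ACTGATGATG, which lies in the X box region of class II promoters. All windows were searched on both strands for this run and for GATTGG, letters of the Y box whose reverse complement is CCAATC. The search letters do not overlap each other, and since the first run was taken from these windows, finding it there is no result. Among all 35116 windows, 0.0854% held the X letters, 15.1% the Y letters and 6 windows held both. Those 6 included the windows of HLA-DRB1, HLA-DMB and HLA-DMA. These windows are shown, with the matched letters in capitals, because they hold both the X and the Y letters.
HLA-DRB1, chr6:32589878-32589935, minus strand: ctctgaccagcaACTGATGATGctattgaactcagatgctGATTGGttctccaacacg
HLA-DMA, chr6:32953160-32953218, minus strand: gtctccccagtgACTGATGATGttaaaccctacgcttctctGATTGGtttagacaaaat
HLA-DMB, chr6:32941033-32941124, minus strand: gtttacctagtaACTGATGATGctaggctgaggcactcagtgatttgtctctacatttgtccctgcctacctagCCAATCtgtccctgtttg
The X and Y letters lie 18 bases apart in HLA-DRB1 and 19 in HLA-DMA. In HLA-DMB the nearest Y letters lie 52 bases away and on the opposite strand. The capitals there do not have the spacing of the other windows and are not shown to mark a Y box. A match describes these letters and shows neither a bound site nor a cause.

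Class II genes were clearly expressed in these melanoma cells. Of the 28 probe sets, 20 were above the floor on all 4 arrays, HLA-DPA1 213537_at was above it on 2, and 7 were below it on every array, at 2.05 to 69.1. Each of the 10 genes had at least 1 probe set above the floor on all 4 arrays. Signals of different probe sets are not set against each other, since each has its own affinity. The 7 dim probe sets, which were not tested, named HLA-DRB4 (2), HLA-DQA1 (2), CD74 (1), CIITA (1) and a group of HLA-DRB genes (1).

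**Figure D1:**
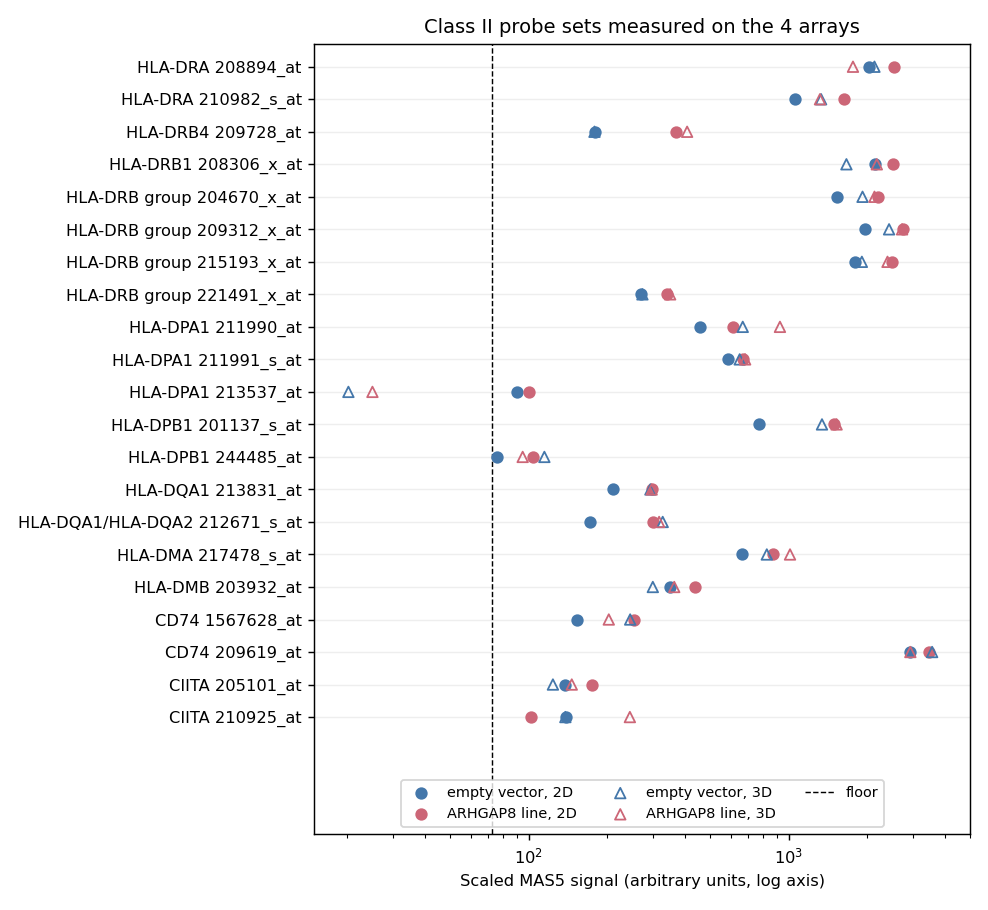
Scaled MAS5 signal, on a log axis in arbitrary units, of the 21 class II probe sets above the floor of 72.3 (dashed line) on at least 2 arrays, with 1 point per array. For HLA-DRB4 209728_at both arrays of the ARHGAP8 line (369 and 407) lie right of both empty-vector arrays (179 and 180), and HLA-DPA1 213537_at drops below the floor on both 3D arrays.

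HLA-DRB4 encodes a second DR beta chain that only some HLA haplotypes carry. Of 3 probe sets naming it alone, only 209728_at was above the floor. The others were below it on every array, so among these the reading rests on 209728_at alone. Whether M14 carries HLA-DRB4, and whether 209728_at also binds RNA of related HLA-DRB genes, was not tested. That probe set read 180.1 in 2D and 179 in 3D with the empty vector. In the line labelled ARHGAP8 it read 369 in 2D and 407 in 3D. The 2 empty-vector values lay together, the 2 values of the line labelled ARHGAP8 lay together above them, and the lines did not overlap. The log2 ratio of the line labelled ARHGAP8 over the empty-vector line was 1.04 in 2D and 1.18 in 3D, or 2.05-fold and 2.27-fold. These are the values that chose the gene. By the smaller of these ratios the probe set ranked 5 among 28651 probe sets tested, of which 0.0209% were at least 2-fold higher in both cultures.

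The other HLA-DRB probe sets showed smaller ratios. HLA-DRB1 encodes the main DR beta chain, and its own probe set 208306_x_at read 2149 and 2511 in 2D, against 1667 and 2182 in 3D, empty vector first. The shared probe set 204670_x_at, which names HLA-DRB1 and HLA-DRB4, read 1535 and 2214 in 2D, against 1923 and 2138 in 3D. In both, each array of the line labelled ARHGAP8 was above each empty-vector array, as in 13.0% of 22638 probe sets above the floor on all arrays. The probe sets that name 4 or more class II genes kept that order of the lines: 209312_x_at read 1974 and 2744 in 2D, against 2432 and 2729 in 3D. In 215193_x_at the signals were 1799 and 2499, then 1912 and 2399, and in 221491_x_at they were 270.2 and 339, then 274 and 350.0. Over the 5 HLA-DRB probe sets above the floor other than 209728_at, the log2 ratios between the lines spanned 0.22 to 0.53 in 2D, and in 3D they spanned 0.15 to 0.39. HLA-DRB genes are nearly identical, and probe sets with the ending _x_at may bind several of them, so these 5 are not independent readings and their shares by gene are uncertain.

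HLA-DRA encodes the alpha chain that pairs with every DR beta chain. Its probe set 208894_at read 2028 and 2539 in 2D, against 2137 and 1767 in 3D, empty vector first. The other, 210982_s_at, read 1059 and 1632 in 2D, against 1332 and 1319 in 3D. Both were highest on the ARHGAP8 2D array, and in 3D the lines were close or in the reverse order. The log2 ratios between the lines were 0.32 and 0.62 in 2D but -0.27 and -0.01 in 3D, so HLA-DRA was not higher in both cultures as HLA-DRB4 was. The difference between these genes was not tested.

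HLA-DPA1 and HLA-DPB1 encode the chains of HLA-DP. HLA-DPB1 201137_s_at read 768 in 2D with the empty vector, while the other 3 arrays read 1343 (empty vector, 3D), 1490 (ARHGAP8, 2D) and 1528 (ARHGAP8, 3D), so that 1 array was low. Its dimmer probe set 244485_at was lowest on the same array, at 75.8 against 94.8 to 115. HLA-DPA1 gave readings that disagreed among its probe sets. In 211990_at the signals were 457 and 609 in 2D, against 666 and 925 in 3D, both 3D arrays above both 2D arrays. In 211991_s_at they were 585 and 665 in 2D, against 648 and 680.0 in 3D, within a narrow range. In 213537_at they were 90.3 and 100.0 in 2D, against 20.3 and 25.1 in 3D, the reverse of 211990_at, with the 3D values below the floor.

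HLA-DQA1, the alpha chain gene of HLA-DQ, read 212 and 297 in 2D, against 294 and 297 in 3D on 213831_at, empty vector first. The probe set shared with HLA-DQA2, 212671_s_at, read 172 and 300.2 in 2D, against 328 and 318 in 3D. Both were lowest on the empty-vector 2D array and close together on the other 3.

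The peptide exchange genes were higher in the line labelled ARHGAP8 in both cultures. HLA-DMA 217478_s_at read 659 and 871 in 2D, against 824 and 1012 in 3D. HLA-DMB 203932_at read 350.5 and 436 in 2D, against 300.3 and 363 in 3D. The lines did not overlap in either gene, with ratios of 0.40 and 0.30 for HLA-DMA and 0.31 and 0.27 for HLA-DMB in 2D and 3D. Of 22638 probe sets above the floor on all arrays, 13.0% had this order of the lines and 14.4% the reverse. The separation in these genes is therefore a description, and a line difference was not tested.

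CD74 209619_at, the bright probe set of the invariant chain gene, read 2939 and 3455 in 2D, against 3561 and 2937 in 3D. Its second probe set above the floor, 1567628_at, read 153 and 255 in 2D, against 246 and 203 in 3D. In both, the line labelled ARHGAP8 was the higher in 2D and the lower in 3D.

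CIITA was read by 2 probe sets above the floor that disagreed. In 205101_at the signals were 138 and 176 in 2D, against 124 and 146 in 3D. Each array of the line labelled ARHGAP8 was thus above each empty-vector array, an order found in 13.0% of 22638 probe sets. In 210925_at they were 139 and 102 in 2D, against 138 and 245 in 3D, so the ARHGAP8 3D array stood alone above the others. That is the array with raised ribosomal RNA controls, and their part in this value was not tested. Without that array the log2 ratio between the lines was -0.44, the 2D value, so 210925_at was then higher with the empty vector.

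By counts, class II signals were mostly higher in the line labelled ARHGAP8. Of the 21 probe sets tested, 20 were above 0 in 2D and 14 in 3D, where the shares over all 28651 tested were 46.7% and 50.2%. Their medians were 0.42 in 2D and 0.17 in 3D, against -0.0014 and 0.0023 over all. In both cultures 13 were higher and 0 lower, while 24.5% and 25.4% of all were. At 2-fold, 0 members were lower in 2D (0.262% of all), in 3D (1.46%) or in both (0.0314%). Both arrays of the line labelled ARHGAP8 were above both empty-vector arrays for 12 of the 20 probe sets above the floor on all arrays, against 13.0% of 22638, and for 0 the other way round, against 14.4%. At 2-fold, only 209728_at passed, in 2D (0.230% of all were as much higher) and in 3D (1.52%). The members were picked in this contrast, and several share sequence, so the counts describe them and support nothing further. In bulk RNA, fewer cells of a kind and less RNA per cell cannot be told apart.

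**Figure D2:**
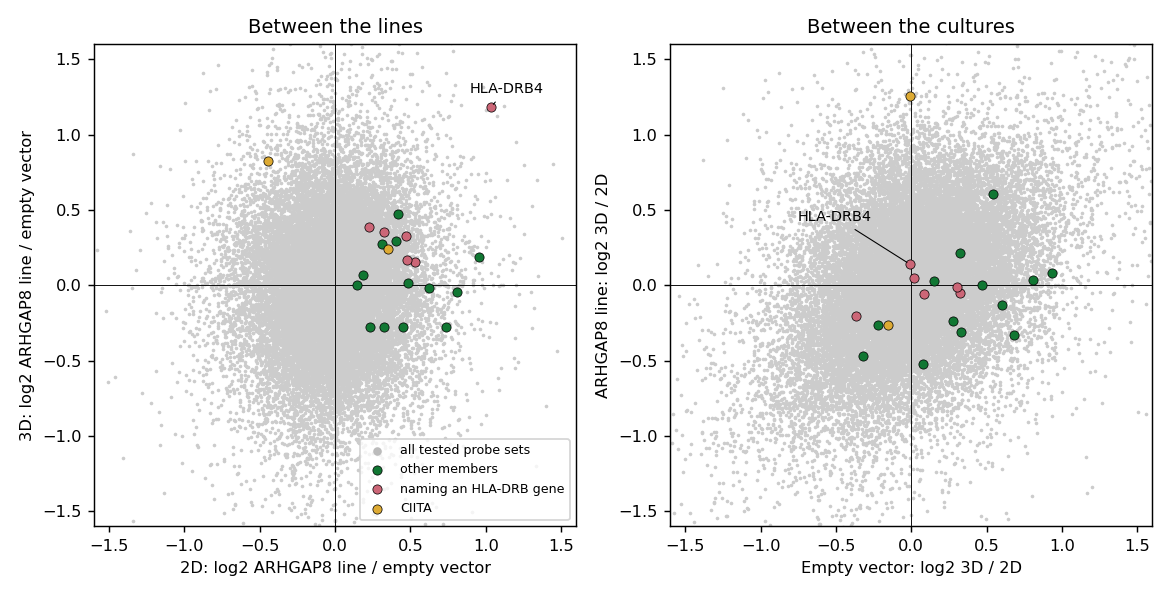
Log2 ratios of the 21 class II probe sets (coloured) over all 28651 tested (grey), between the lines in 2D and in 3D (left) and between 3D and 2D in each line (right), with axes cut at 1.6 either way. On the left 20 members lie right of 0 and HLA-DRB4 is at 1.04 and 1.18; on the right members lie between -0.37 and 0.93 in the empty-vector line, and a CIITA probe set stands at 1.26 in the line labelled ARHGAP8.

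The empty-vector 2D array was the lowest of the 4 for most members. It held the lowest signal for 13 of the 20 probe sets above the floor on all arrays, against 21.9% of 22638 probe sets, and the highest for 0, against 20.7%. Without the ARHGAP8 3D array it was the lowest of the other 3 for 15 of the 20, against 28.5%. With 1 probe set per gene, the brightest naming it alone, it was lowest for 4 of the 10 genes. The probe set count thus weighs genes by how often they are probed, and since the array enters the 2D comparison of the lines, this count is no separate evidence.

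The second comparison asked how growth in gel differed from growth on plastic, which had no part in choosing the genes. No class II probe set passed the test. Of 21 tested, 0 rose and 0 fell in 3D by limma's additive model of plasmid and culture with Benjamini-Hochberg adjustment over 28651 probe sets, of which 3.49% passed (1.63% higher and 1.87% lower, 466 and 535 probe sets). That split depended on the scaling, with 274 higher and 215 lower after quantile and 297 and 218 after cyclic loess normalization, and 0 members in each. An unadjusted p under 0.05 was found for 2 of the 21 members, and for 17.6% of all probe sets. Both 3D arrays were above both 2D arrays for 2 of the 20 probe sets above the floor on all arrays (25.5% of all), and the reverse held for 0 (23.3%). The median over the 21 was 0.09, against 0.03 over all, with 16 above 0 and 5 below. The model has 1 residual degree of freedom, and its moderated standard errors (SE) draw mostly on other probe sets of like signal.

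The largest shift toward 3D with lines in accord was that of HLA-DPA1 211990_at, at 0.57 ± 0.17 log2 (moderated SE, 4 arrays), with 0.54 for the empty-vector line and 0.60 for the other. Its adjusted p was 0.0750 in limma, and its 95% interval ran from 0.22 to 0.93. The neighbouring 211991_s_at gave 0.09 and 213537_at gave -0.40, a bound, since its 3D signals were set to the floor. HLA-DPB1 201137_s_at was at 0.42 ± 0.19 (adjusted p 0.258 in limma), made of 0.81 with the empty vector and 0.04 with the ARHGAP8 plasmid. HLA-DRB4 209728_at was at 0.07 ± 0.22, with an interval from -0.39 to 0.53 and an adjusted p of 0.913 in limma.

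None of the remaining members passed either. The probe set shared by HLA-DQA1 and HLA-DQA2, 212671_s_at, was at 0.51 ± 0.24 (adjusted p 0.287 in limma). It was made of 0.93 with the empty vector and 0.08 in the line labelled ARHGAP8. HLA-DRA stood at -0.22 and 0.01 on its 2 probe sets, HLA-DRB1 at -0.28, HLA-DMA at 0.27 and HLA-DMB at -0.24. CD74 stood at 0.02 on its brighter probe set and 0.18 on 1567628_at. HLA-DQA1 213831_at was at 0.24, HLA-DPB1 244485_at at 0.24 and CIITA 205101_at at -0.21. The tested HLA-DRB probe sets naming several genes spanned 0.01 to 0.15. CIITA 210925_at was at 0.62 ± 0.31, from -0.01 with the empty vector and 1.26 in the line labelled ARHGAP8, where 2.09% of all probe sets were at least 2-fold higher. With dim signals at the floor it was the only member at 2-fold between cultures: 0 were higher (1.72% of all) or lower (1.34%) with the empty vector, and 0 were lower in the line labelled ARHGAP8 (2.01%). HLA-DPA1 213537_at was held under 2-fold by the floor, since its signal in 3D was 0.224 and 0.251 of that in 2D before the floor was set. Without the ARHGAP8 3D array the value of CIITA 210925_at was -0.01, that of the empty-vector line. Over the 21 probe sets the 95% intervals reached from -0.82 to 1.29. For each probe set, culture differences within its own interval are thus not shown to be absent. The high end belongs to CIITA 210925_at, whose value rests on the ARHGAP8 3D array. The low end belongs to HLA-DPA1 213537_at, whose value is a bound and read -2.08 with no floor. For that probe set a larger fall is not shown to be absent either. For ACTB, the ratio of 3' to 5' control signal, a sign of RNA quality, was 1.05 to 1.10 in 2D and 1.23 to 1.32 in 3D. For GAPDH the same ratio differed less, at 0.87 to 0.90 in 2D and 0.90 to 0.92 in 3D. The part of RNA quality in these values was not tested.

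**Figure D3:**
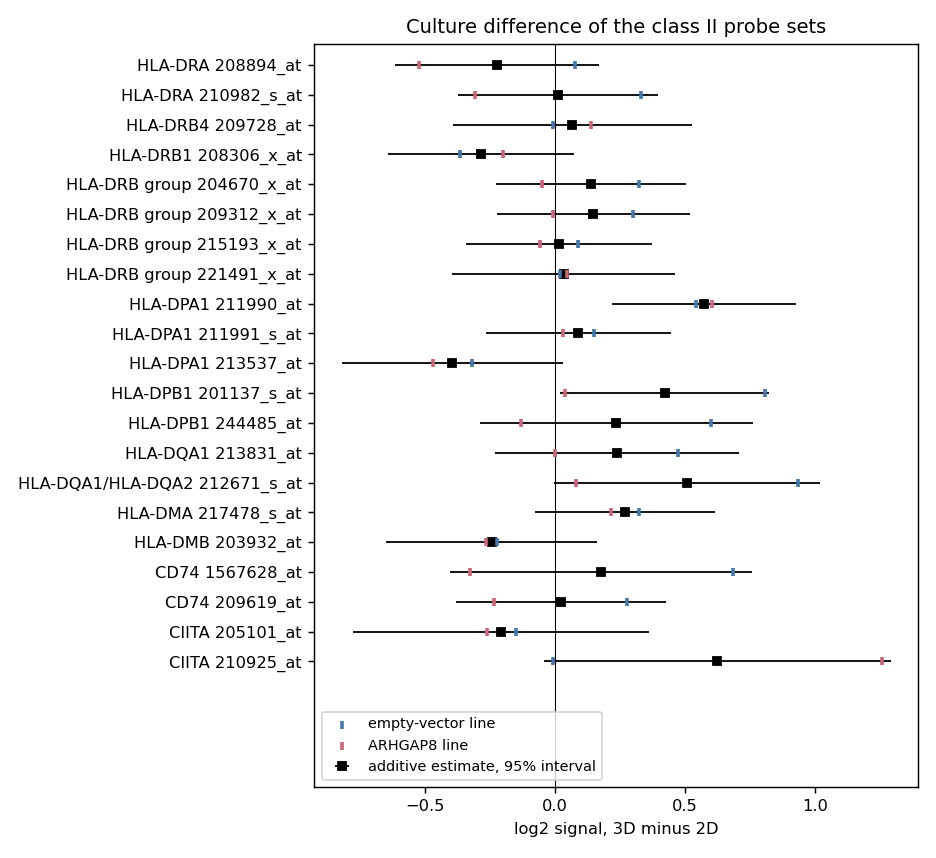
Difference between 3D and 2D on the log2 scale for the 21 class II probe sets, as the additive estimate (squares) with its 95% interval (bars) and the ratio within each line (coloured ticks). The intervals of all but 2 of these 21 probe sets cross 0; those of HLA-DPA1 211990_at and HLA-DPB1 201137_s_at lie above it, although neither passed after adjustment.

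Culture ratios pointed opposite ways in the lines for 10 of the 21 probe sets, against 36.7% of all. The median was 0.28 with the empty vector and -0.05 in the line labelled ARHGAP8, beside 0.0037 and 0.04 over all. For 8 of the 21 the signal was higher in 3D in the empty-vector line and lower in the other, against 16.9% of all. These include both CD74 probe sets, at 0.28 and 0.68 with the empty vector but -0.24 and -0.33 in the other line, and both of HLA-DRA. This difference between the lines was not tested, since 4 arrays leave no replicate for it. It uses the array with raised ribosomal RNA controls and the array on which most members were lowest.

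Genes that work with class II were read from lists drawn up with earlier results of these data known. Over 13239 genes, 1.84% rose and 2.27% fell in the culture test, so 0 passing in lists this short is near that share. Such a 0 does not show that a list is unchanged. Other class II genes had 4 measured members, of which 0 passed for culture. HLA-DQB1, the beta chain gene of HLA-DQ, read 408 and 563 in 2D, against 448 and 590 in 3D, empty vector first, on a probe set that also ends in _x_at and may bind related genes. Of the other 3, HLA-DRB6 had log2 ratios between the lines of 0.03 in 2D and 0.27 in 3D. HLA-DQB2 had 0.38 and -0.22, and HLA-DOA, which modulates HLA-DM, had -0.02 and -0.34. Of 11 promoter factors, 0 passed and the median was -0.22. RFX5, a DNA-binding subunit of the X box complex, was at -0.11 ± 0.17. Of 6 genes of class II repression and turnover 0 passed, and the nearest was the methyltransferase gene EZH2 at -0.72 (adjusted p 0.0564 in limma). Of 13 lysosomal processing genes 0 passed, with a median of 0.27. LGMN, the asparagine endopeptidase gene, was at 0.60 (adjusted p 0.0703 in limma), and CTSS, the protease that trims CD74, at -0.05.

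Class I presentation did not pass for culture either. Of 19 measured genes, 0 passed, where 1.84% of 13239 genes rose and 2.27% fell. The median was 0.07, against 0.03 over those genes. B2M, the light chain of class I, read 4836 and 4623 in 2D, against 5526 and 6054 in 3D, a difference of 0.29 ± 0.20. HLA-B was at 0.50 ± 0.18 and HLA-C at 0.35 ± 0.18, with adjusted p of 0.167 and 0.355 in limma, and TAP1, a peptide transporter gene, at -0.15. The class I heavy chain genes are near-identical too, so HLA-B and HLA-C are uncertain. CALR, a chaperone of class I assembly, did not pass on its brightest probe set, at -0.50; another, 200935_at, fell by 1.10 (adjusted p 0.00972 in limma) and is named after its value was seen. With the empty vector alone it was at -0.61. Other probe sets than the brightest also passed for CD47 (0.91, with the empty vector 0.83), for SMARCA4 (-0.70 and -1.38, with the empty vector -0.40 and -0.51) and for SOX10 (-1.76, with the empty vector -1.37). On the ARHGAP8 3D array SMARCA4 215714_s_at read 16.0 and SOX10 209843_s_at 36.7, below the floor, so both values are bounds.

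**Figure D4:**
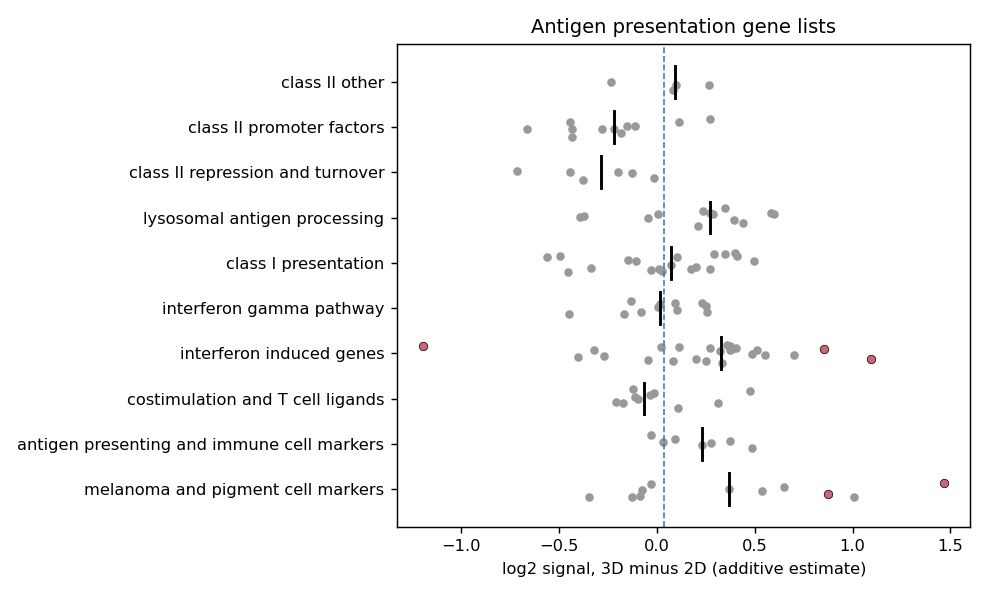
Difference between 3D and 2D on the log2 scale for the measured genes of 10 lists, with 1 point per gene, list medians as black bars and the median over 13239 genes, 0.03, as a dashed line; red points passed the test. Passing genes appear only among the interferon induced genes (2 higher, 1 lower) and the melanoma markers (2 higher).

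Interferon genes changed in part. Of 11 measured genes of the interferon gamma pathway, 0 passed, and IRF1, a transcription factor it induces, was at 0.01. The IFNG probe set was below the floor on every array. Among 24 measured interferon induced genes, 2 rose and 1 fell, where 1.84% and 2.27% of 13239 genes did, and the median was 0.33 against 0.03. IFI6, an interferon-inducible mitochondrial protein gene, rose by 1.09 ± 0.25, from 155 and 182 in 2D to 249.9 and 517 in 3D (adjusted p 0.0240 in limma). GBP2, a guanylate-binding protein gene, rose by 0.85 ± 0.22, from 170.3 and 228 to 281 and 451 (adjusted p 0.0432 in limma), while its other probe set read 0.15. OAS3, an antiviral synthetase gene, fell by 1.19 ± 0.27, from 180.2 and 201 to 95.7 and 62.1 (adjusted p 0.0264 in limma), a bound, since 62.1 is below the floor. For all 3 genes the shift was in the same direction in both lines, and in the empty-vector line alone it was 0.69 for IFI6, 0.72 for GBP2 and -0.91 for OAS3. Of 10 costimulation and T cell ligand genes, 0 passed.

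Markers of immune cells, several of which carry class II, were mixed. PTPRC, the pan-leukocyte CD45 gene, read 0.871 to 2.82, CD14 of monocytes 5.76 to 7.76 and LYZ 42.3 to 65.9, all below the floor on every array. Of 16 antigen presenting and immune cell markers with a probe set of their own, 6 were below the floor on all arrays and 6 above it on all. Those 6 were CD79A, at 290 to 369, CD79B, ITGAM, CD1C, FCER1A and CD3D. The summed signal of the list was 1450 and 1218 in 2D, against 1395 and 1618 in 3D, empty vector first. The sum was thus higher with the empty vector in 2D but lower with it in 3D, and its part in the class II values was not tested. Such sums add raw signals of probe sets with unlike affinity, dim ones included, so they do not measure shares of cells. The melanoma marker list summed to 10688 and 7583 in 2D and to 12114 and 10907 in 3D, with MLANA, a melanosome antigen gene, at 1614 and 489 in 2D, against 1814 and 1753 in 3D. The part of these markers in the class II values was not tested either. TYR and TYRP1, of melanin synthesis, rose in 3D by 0.88 ± 0.20 and 1.47 ± 0.19 (adjusted p 0.0231 and 0.000472 in limma), and with the empty vector alone they were at 0.45 and 1.44.

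The genes most like HLA-DRB4 in pattern were sought over the 4 arrays, as the smallest Euclidean distance between centred log2 signals among 18702 probe sets. The pattern of 209728_at is mostly the line difference that chose the gene. A near gene therefore has similar line ratios by construction, and its nearness supports nothing about HLA-DRB4. CXCL8, a neutrophil-attracting chemokine gene, lay nearest at a distance of 0.10, with signals of 269 and 532 in 2D, against 253 and 631 in 3D. Next were CRIM1 at 0.24, DAP3 at 0.27, IGF1R, the insulin-like growth factor receptor gene, at 0.32, and CDC42 at 0.33. Nearest to HLA-DRA 208894_at were GNB5, ADGRE5, EFCAB14, GNL1 and CCNO, at 0.03 to 0.04. With 4 arrays, probe sets can lie this close to a modest pattern such as that of HLA-DRA, while for HLA-DRB4 the nearest was at 0.10. In both cases nearness describes these arrays only.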

How the data were processed

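The authors deposited MAS5 signal intensity values on a linear scale, per the submitters' processing notes; version and detection calls are not given in the sources used here. Here each array was multiplied to give the same 2% trimmed mean, 150.0. Signals below the median of all 54613 non-control probe sets, 72.3, were raised to this floor before log2. Probe sets above the floor on at least 2 arrays, 28651, were fitted with limma 3.58.1 under R 4.3.3 (plasmid plus culture, eBayes with an intensity trend, prior degrees of freedom 13.9), as a two-sided test, adjusted by Benjamini-Hochberg and called at 0.05. The fit was tested on simulated data with independent noise of equal spread, no line difference and no deviating array. That test therefore does not show how the fit behaves on these arrays. With 1 array per group, each ratio has no replicate error, and the number of arrays limits precision. Symbols came from the platform annotation, updated through RefSeq gene identifiers; 41091 probe sets carried 1 symbol, 1801 several and 11721 none. Some genes of the lists are not reported here. In list counts a gene was its brightest probe set naming it alone. Members, lists and tests were chosen with earlier results of these data known. Member probe sets above the floor on at least 2 arrays are reported singly. The 7 dim ones are given as counts by gene, with 1 range of signal. The other lists give genes past the test and the fixed genes B2M, HLA-B, HLA-C, TAP1, IRF1, RFX5, CTSS, PTPRC and MLANA. HLA-DQB1, EZH2, LGMN, HLA-DRB6, HLA-DQB2, HLA-DOA, IFNG, CD14, LYZ, the 6 immune markers above the floor and PMEL were named after their values were seen. For pattern likeness, the 5 nearest genes to the HLA-DRB4 and the brightest HLA-DRA probe set were taken among those above the floor on all arrays. Alternatives were other scalings, floors, filters, variance priors, 1 probe set per gene, and leaving out the ARHGAP8 3D array.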

Additional observations from a re-analysis of the deposited data

Results flagged for a closer look

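In 2 class II probe sets the line with the higher signal in 2D had the lower one in 3D, and the log2 ratios were at least 2-fold apart; this difference was not tested. CIITA 210925_at had a difference of 1.27 log2 (-0.44 in 2D, 0.82 in 3D), and CD74 1567628_at one of -1.01 (0.74 in 2D, -0.27 in 3D). Outside the genes compared, control probe sets of 18S and 28S ribosomal RNA had median signals of 626 and 1390 on the ARHGAP8 3D array, above all other arrays.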

How the results depend on the processing

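No member probe set was called in 3D, higher or lower, under any of the 10 settings; limma gave 1 to 4 members an unadjusted p under 0.05, and the smallest adjusted p was 0.0561, for HLA-DPA1 211990_at among probe sets above the floor on all 4 arrays (0.0561 to 0.783 over its settings). HLA-DPA1 213537_at, bounded at -0.40, read -2.08 with no floor, where it did not pass either. The line difference of HLA-DRB4 ran from 1.11 to 1.13 over 6 settings and was 1.04 without the ARHGAP8 3D array; leaving out that array moved the line and the culture values of 10 of 21 members each by more than their standard error. Over all probe sets, 466 higher and 535 lower calls became 274 and 215 after quantile and 297 and 218 after cyclic loess normalization, 301 and 287 with no floor, and 199 and 161 without a variance trend. With no filter limma made 0 calls (3266 probe sets under an unadjusted p of 0.05), a fit that holds many probe sets at the floor on all arrays. No scaling moved the median of all probe sets by over 0.1. No paired analysis was possible because each group has 1 array and the labels give no replicate numbers, beyond the additive model itself, which compares the cultures within each line. Signals near the floor, as for CIITA, limit what can be read.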
